A study of Mus musculus with 158 samples.

Results

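Open chromatin of mouse embryonic stem cells (mESCs) that was not found in adult tissue is described here. The sites were hotspots, stretches with more DNase I cuts than their surroundings, of the B6xCAST mESC DNase-seq set. They were selected on measured values: a hotspot was kept if it lay on an autosome and shared no base with any hotspot of the 20 adult sets or with any hotspot of the mESC CTCF ChIP-seq set. This left 31970 of 112353 autosomal mESC hotspots, or 28.5%. The absence from adult tissue is therefore the choice itself and not a result.

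The series profiled F1 hybrids of C57BL/6J (B6) with 5 other inbred strains, labelled B6x129, B6xC3H, B6xCAST, B6xPWK and B6xSPRET, the last 3 of which carry the genome of wild-derived mice (CAST/EiJ, PWK/PhJ and SPRET/EiJ). DNase-seq was done on whole liver, whole kidney and whole lung, with solid tissues usually pooled from several mice, and on B cells enriched from femoral marrow by removing cells with CD43 or Mac-1/CD11b, from female mice 8 weeks old. The mESCs were cultured on gelatin in a medium that was mostly 2i with LIF, which holds them in the naive state by blocking MEK and GSK3. The labels and the study's methods name the mESC cross B6xCAST, while a table of the study names another cross for the same libraries, and the 2 DNase-seq samples are represented by 1 deposited set, so no replicate error exists for any mESC value. The adult sets held 76055 to 286482 autosomal hotspots each. The sets give a score for each hotspot, the −log10 of its false discovery rate (FDR). Scores ran from 1.302 in the mESC set to a ceiling of 100. The sets hold no read counts, so the depth behind a site is unknown. The study reports read totals, and a smaller share of reads in open sites for the mESC libraries than its mean for adult samples. Neither was taken into account here, so comparisons of mESC with adult sets are not adjusted for them.

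Naive pluripotency rests on a small set of transcription factors. OCT4 (gene Pou5f1) and SOX2 bind side by side to a composite DNA element, and NANOG, ESRRB, KLF4, TFCP2L1 and STAT3 act with them at enhancers of their own and each other's genes. Such enhancers are decommissioned when cells leave the pluripotent state, whereas promoters of housekeeping genes and CTCF-bound sites stay open in most cell types. To check the label, 7 pluripotency markers were examined, Pou5f1, Sox2, Nanog, Esrrb, Zfp42, Klf4 and Tfcp2l1. Each had an mESC hotspot of some kind within 1 kb of a transcription start site (TSS), as did 70.1% of autosomal protein-coding genes. Adult sets also had hotspots at these starts, in all 20 sets at Klf4 and Tfcp2l1 but in 4 at Nanog and 2 at Zfp42, so the 7 starts on their own do not set stem cells apart. Of the 7 markers, 6, all but Klf4, had at least 1 of the selected sites within 50 kb, as did 64.1% of all autosomal protein-coding genes.

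The composite OCT4-SOX2 element was searched as CATTGT, any base, ATGCAAAT, on both strands of the 200 bp around the middle of each hotspot, with up to 2 of the 14 fixed bases changed. The sequences below show it at 6 selected sites, in lower case with the best match in capitals, on the plus strand of mm10 (RefSeq GRCm38). In all but the Ebf1 window the match was on the minus strand, so the capitals read as its reverse complement. The Pou5f1, Nanog and Esrrb sites were the closest matches among sites within 50 kb of these genes, and the other 3 had the highest scores among exact matches, chosen after their values were seen.
Pou5f1: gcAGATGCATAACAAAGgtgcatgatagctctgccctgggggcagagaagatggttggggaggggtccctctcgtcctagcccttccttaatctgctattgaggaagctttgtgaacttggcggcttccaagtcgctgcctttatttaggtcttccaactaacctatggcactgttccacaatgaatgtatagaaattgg
Nanog: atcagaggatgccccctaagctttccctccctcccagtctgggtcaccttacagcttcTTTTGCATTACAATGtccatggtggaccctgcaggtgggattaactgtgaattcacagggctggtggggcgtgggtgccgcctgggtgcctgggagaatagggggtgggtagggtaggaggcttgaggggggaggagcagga
Esrrb: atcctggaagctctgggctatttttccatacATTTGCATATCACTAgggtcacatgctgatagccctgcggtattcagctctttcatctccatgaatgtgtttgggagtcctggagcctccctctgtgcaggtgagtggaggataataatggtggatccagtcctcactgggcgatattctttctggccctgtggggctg
Trpc7: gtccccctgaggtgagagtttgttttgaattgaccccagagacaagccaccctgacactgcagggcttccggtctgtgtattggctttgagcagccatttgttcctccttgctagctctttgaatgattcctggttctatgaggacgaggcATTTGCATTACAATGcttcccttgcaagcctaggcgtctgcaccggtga
Ebf1: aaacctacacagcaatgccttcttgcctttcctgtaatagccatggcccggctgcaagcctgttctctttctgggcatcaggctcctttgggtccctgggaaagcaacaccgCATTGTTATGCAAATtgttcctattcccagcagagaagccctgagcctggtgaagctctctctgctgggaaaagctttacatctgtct
Fbxl17: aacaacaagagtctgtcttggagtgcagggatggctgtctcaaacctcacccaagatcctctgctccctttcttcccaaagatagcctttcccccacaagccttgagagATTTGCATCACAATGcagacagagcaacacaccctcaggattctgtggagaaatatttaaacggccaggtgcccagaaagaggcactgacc
The Nanog site (chr6:122707355-122707554, score 5.73) lay 34 bp from a Nanog TSS. Its match was on the minus strand and differed from the element by the substitution T15A, counted from 1 at the 5′ end of the element. The Pou5f1 site (chr17:35504047-35504246, score 11.04) lay 1871 bp from the TSS and departed from the element at 3 positions, A2T, A13T and A14C, so it was not counted as holding it. The Esrrb site (chr12:86471015-86471214, score 11.5), 998 bp from an Esrrb TSS, likewise had 3 changes, C1T, T3G and T6A. Of the first 10 pluripotency genes in list order with a selected site, Nanog was the only one whose best site matched within 2 changes, and Sox2, Klf2, Klf5, Tfcp2l1, Tbx3, Prdm14 and Zfp42 had best matches with 3 to 6. Over the whole list, sites with the element within 2 changes lay within 50 kb of 4 genes, Nanog, Utf1, Jarid2 and Dnmt3l. Only the central 200 bp of each site was searched, and some sites were far wider, such as 1 of 2143 bp near Pou5f1. The element may therefore lie in parts of these sites that were not searched.

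Exact matches were rare. They occurred at 6 selected sites and at 1 of 43628 mESC sites shared with adult tissue and free of CTCF. The site nearest to Trpc7 (chr13:57362621-57362820, score 25.7) was intergenic and 466728 bp from the TSS of this cation channel gene. The intronic site nearest to Ebf1, a B cell transcription factor gene (chr11:44841770-44841969, score 17.6), was 70268 bp from its TSS, and that nearest to Fbxl17, a ubiquitin ligase subunit gene (chr17:63176507-63176706, score 6.50), was 275104 bp away. The nearest gene of each of these 3 sites was not on the pluripotency list. A further 72 sites matched with 1 change and 480 with 2.

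The element was found at 558 selected sites, or 1.75% (1.61 to 1.90). Ranges in brackets after a share are 95% Wilson intervals, and they cover counting error alone. Among the other mESC hotspots it was found at 0.823% (0.742 to 0.912) of the shared sites without CTCF, 0.2004% (0.158 to 0.254) of the 34430 shared sites with CTCF and 0.860% (0.558 to 1.32) of the 2325 CTCF sites that no adult set held. Windows placed every 10 kb along the autosomes, 239580 in all, held it at 0.282%. The share in the selected sites was thus 2.12 times that in shared sites and 6.19 times that in the grid. It was higher in selected than in shared sites on 19 of 19 autosomes, by 0.107 percentage points on chromosome 14 and by 1.88 on chromosome 19.

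Adult tissue gave a replicated background. For each of the 20 adult sets, hotspots found in no other tissue, in no mESC DNase-seq hotspot and in no CTCF hotspot were collected, which left 10784 to 86109 sites a set. Their OCT4-SOX2 shares were 0.195% ± 0.016 for liver, 0.197% ± 0.036 for kidney, 0.207% ± 0.041 for lung and 0.256% ± 0.057 for B cells (SD, n = 5 hybrids each). All 20 shares lay between 0.135% and 0.328%, below the 1.75% of the selected mESC sites, which was 8.17 times their mean. That mean, 0.214%, was also below the 0.282% of the grid. Leaving out mESC hotspots removed from this background any adult site whose motif was also open in mESCs. How far this lowered the adult shares of OCT4-SOX2 and other motifs was not tested. The exact two-sided permutation test of 1 value against 20 gave p = 0.0476 (0.222 after Benjamini-Hochberg adjustment over the 28 motifs searched). This is the smallest p it can give and only restates that the value lay above all 20 sets, which are 4 tissues by 5 hybrids and not independent replicates.

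Of the 28 motifs, 6 had a higher share in the selected sites than in any of the 20 adult sets, a statement of rank that adds no further test. The SOX motif (CCATTGT or CCTTTGT), whose core overlaps the composite element, was found at 13.6% of selected sites (13.2 to 13.98) against 6.25% to 8.23% in the adult sets, 9.92% in the shared sites and 7.65% in the grid. The KLF motif (GGGTGTGG or GGGCGTGG) was found at 6.74% (6.47 to 7.02) against 1.29% to 4.09% in the adult sets, but the shared mESC sites held it more often, at 9.37%. The ZIC motif (CACAGCAGG) stood at 1.11% (0.998 to 1.23) against 0.489% to 0.846% in the adult sets and 1.10% in the shared mESC sites. The remaining 2 were NRF1 (GCGCATGCG), an activator of housekeeping promoters, at 0.181%, and YY1 (AAGATGGCG) at 0.235%, with adult maxima of 0.0723% and 0.198%. Only for OCT4-SOX2 and SOX, of these 6, were the selected sites also above the shared mESC sites beyond their intervals.

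**Figure D1:**
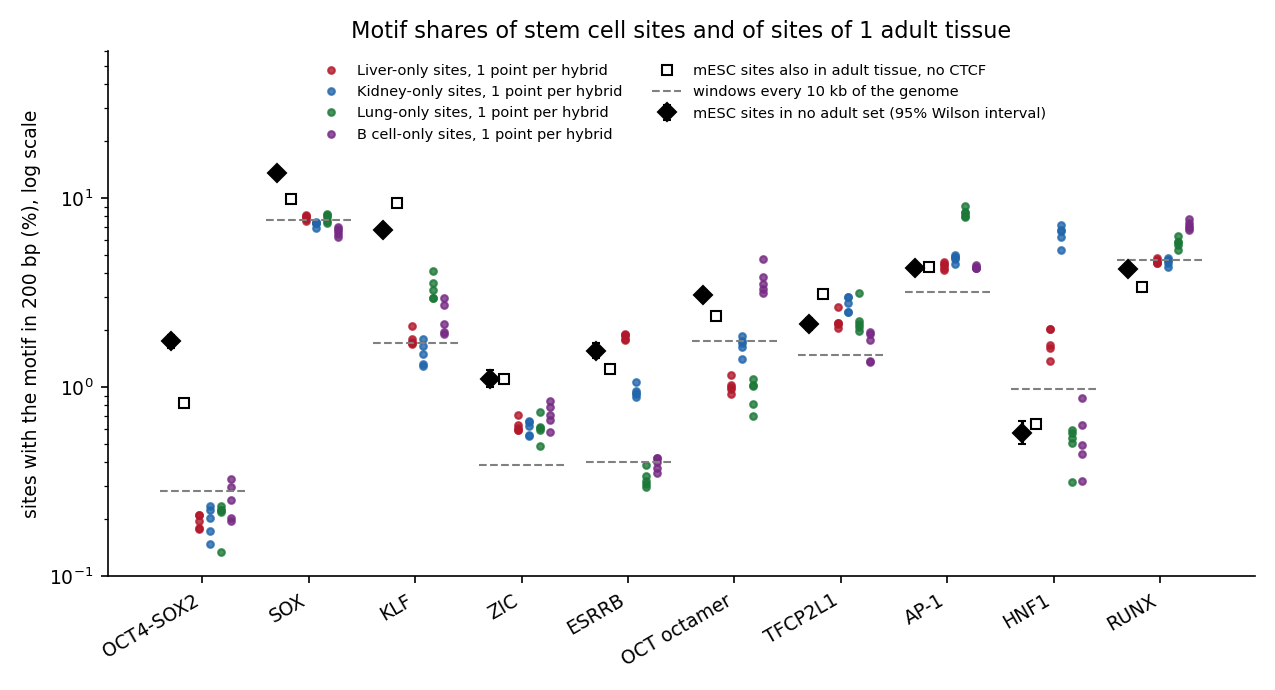
Percentage of sites with each motif in the 200 bp around the hotspot's middle, on a log axis. Black diamonds are mESC sites in no adult set with 95% Wilson intervals, open squares are mESC sites shared with adult tissue, coloured points are sites of 1 adult tissue with 1 point per hybrid, and dashed lines are windows every 10 kb. For OCT4-SOX2 the diamond at 1.75% sits above all 20 adult points, whose highest is 0.328%.

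Several motifs of pluripotency factors were shared with adult tissues. The ESRRB motif (TCAAGGTCA), which other nuclear receptors also bind, was found at 1.56% of selected sites (1.43 to 1.70) and at 1.85% ± 0.062 of liver-only sites, against 0.330% ± 0.035 in lung (SD, n = 5). The octamer alone (ATGCAAAT), which is part of the composite element and is bound by OCT1 and OCT2 as well as OCT4, stood at 3.06% (2.88 to 3.25), below the 3.70% ± 0.629 of B cell-only sites. The TFCP2L1 motif (CCAG, 6 bases, CCAG) was found at 2.16% of selected sites, inside the adult range of 1.36% to 3.13%, and 9 of 20 adult sets had less. Motifs of adult tissue factors had their highest shares in adult tissue. HNF1, a kidney and liver factor (GTTAAT, any base, ATTAAC, 2 changes allowed), stood at 0.576% in the selected sites against 6.44% ± 0.729 in kidney, and AP-1 (TGACTCA or TGAGTCA) at 4.26% against 8.35% ± 0.441 in lung (SD, n = 5). RUNX (TGTGGTT) was the only motif whose share, 4.198%, was below that of all 20 adult sets, the lowest of which had 4.34%.

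Matches to the composite element were most frequent near the middle of the hotspots. When 400 bp were searched, 724 selected sites held a match, and 394 of these, 54.4%, had it within 50 bp of the middle. In the shared sites, 220 of 547, 40.2%, had it there. Shared hotspots were also wider, with a median of 295 bp against 186 bp, and width was not taken into account. The upper quartile of width in selected sites was 298 bp, so the 400 bp took in flanking sequence at most of them. A fall within the hotspots was not separated from a fall into their flanks. The most frequent 25-bp bin lay just before the middle and held a match in 0.372% of selected sites, against 0.0313% in each outermost bin. The outermost bins had fewer possible match positions, because a match had to lie wholly inside the 400 bp.

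**Figure D2:**
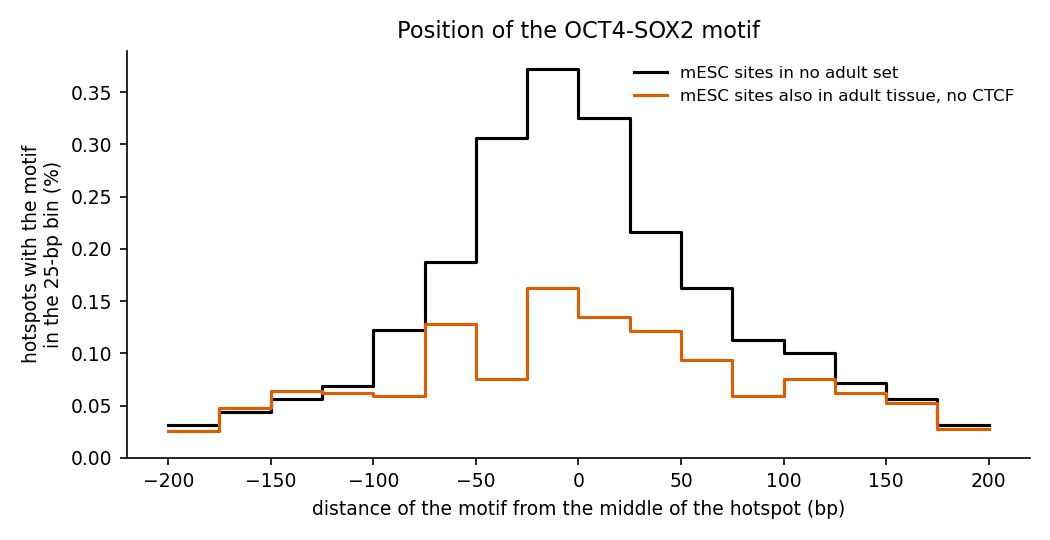
Percentage of hotspots with an OCT4-SOX2 match in each 25-bp bin, by distance in bp from the middle of the hotspot, for mESC sites in no adult set (black) and for those shared with adult tissue and free of CTCF (orange). The black line peaks at 0.372% beside the middle, where the orange line has 0.163%.

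The matches spelled 409 different 15-base words. The most frequent words and the number of selected sites that hold them are shown because none of them spells the element exactly.
14 sites: CATTCTTATTCAAAT
14 sites: CATTCTCATTCAAAT
10 sites: CATTTTGATGCTAAT
Shared mESC sites held these 3 words 2, 2 and 0 times. At the 558 selected sites, the fifth base of the element was G in 70.4% of matches and C in 14.2%, and the base between the OCT4 and SOX2 parts was T in 35.1%, C in 28.9%, A in 18.6% and G in 17.4%.

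Selected sites were smaller and weaker than the mESC hotspots shared with adult tissue. Their median width was 186 bp (quartiles 101 and 298), against 295 bp (159 and 565) for shared sites without CTCF. Their median score was 2.27 (1.78 and 3.56), against 3.596 for shared sites and 6.68 for shared sites with CTCF. Only 1603, 5.01%, reached a score of 10, against 21.4% of shared sites. Sites found in a single adult tissue had median widths of 127 to 223 bp and median scores of 2.09 to 4.45 over the 20 sets. The selected sites lay inside both ranges, but near the lower end for score. Only the B cell sites of B6xSPRET, at 2.09, had a lower median score. The rule selects on the presence of hotspots, to which width and score belong, so no test was made of these values. Near the edge of the rule, 1442 selected sites, 4.51%, had an adult hotspot closer than 50 bp (median score 2.11), while 1826 sites were excluded for an overlap of at most 50 bp (median score 1.96). A further 5184 mESC sites without CTCF were held by exactly 1 of the 20 adult sets (median score 2.75). The median gap from a selected site to the nearest adult hotspot was 990 bp (356 and 2301).

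Motif shares rose with strength. When the selected sites were split into 5 classes of nearly equal size by score, OCT4-SOX2 was found at 0.954% (0.743 to 1.22) of the weakest, then 1.02%, 1.25% and 1.78%, and 3.72% (3.29 to 4.21) of the strongest, those above 4.13. SOX rose from 10.8% to 18.8% and KLF from 4.64% to 10.3% between the same classes. In the strongest class, shared sites held OCT4-SOX2 at 1.01% (0.877 to 1.16). Of those shared sites, 46.3% lay within 1 kb of a TSS, against 6.96% of the selected sites in that class. The part of this difference in position in the motif shares was not tested. AP-1 moved little, from 3.97% (3.52 to 4.48) to 4.47% (3.99 to 5.01). Among the 1445 selected sites over 1 kb from a TSS with a score of 10 or more, 4.78% (3.79 to 6.0) held OCT4-SOX2 and 21.4% (19.3 to 23.6) held SOX.

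Selected sites lay mostly away from promoters. The middle of 6.44% (6.18 to 6.72) was within 1 kb of the TSS of a protein-coding gene, against 37.1% (36.6 to 37.5) of shared sites without CTCF, 19.2% of shared sites with CTCF, 10.0% of CTCF sites of mESCs alone and 3.91% to 5.55% of the sites of 1 adult tissue. Another 41.2% were in introns, 6.24% in exons and 46.1% between genes. The median distance to a TSS was 25031 bp, against 4377 bp for shared sites. CpG-rich sequence (500 bp with at least 55% G and C and an observed-to-expected CpG ratio of at least 0.65) was found at 1.45% of selected and 20.4% of shared sites, and among sites within 1 kb of a TSS at 12.5% (11.1 to 13.97) against 48.6%. The mean GC content was 46.4% ± 7.51 (SD over 31970 sites), against 54.4% ± 9.59 for shared sites and 41.9% for the grid.

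Repeated sequence was more frequent than in shared sites. At least 50% of the window was soft-masked in the reference, the mark of repeats, at 13.2% (12.8 to 13.5) of selected sites, 4.34% of shared sites, 23.4% of mESC CTCF sites absent from adult tissue and 27.4% of the grid, with 5.62% to 16.8% in the adult sets. OCT4-SOX2 was found at 1.21% (0.923 to 1.59) of the masked sites and 1.83% (1.68 to 1.99) of the others. A search for 20-base words that recur among the selected sites, simple repeats left out, found 1 word at 71 sites, which is 17.1% of its 415 exact copies on the autosomes. The same word was at 18 shared sites without CTCF. The median score of the 71 sites was 4.81, 93.0% of them were at least 50% masked, and none held OCT4-SOX2. The next word was found at 61 sites, only 1.13% of its 5393 copies.

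The selected sites differed by how they were spaced. When sites at most 12.5 kb apart were joined, 11674 stood alone, and 7205, 22.5%, lay in 431 stretches of 10 or more. These class limits were chosen after the values were seen. Sites that stood alone held OCT4-SOX2 at 2.78% (2.50 to 3.10), SOX at 17.9% and KLF at 9.46%, with a median score of 2.67. Sites in stretches of 10 or more held them at 0.305% (0.202 to 0.462), 7.80% (7.20 to 8.44) and 1.79% (1.51 to 2.12), against 0.282%, 7.65% and 1.70% in the grid. Their median score was 2.02, their mean GC content 42.7% against 47.6% for sites that stood alone, and 17.1% were at least 50% masked against 12.2%.

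**Figure D3:**
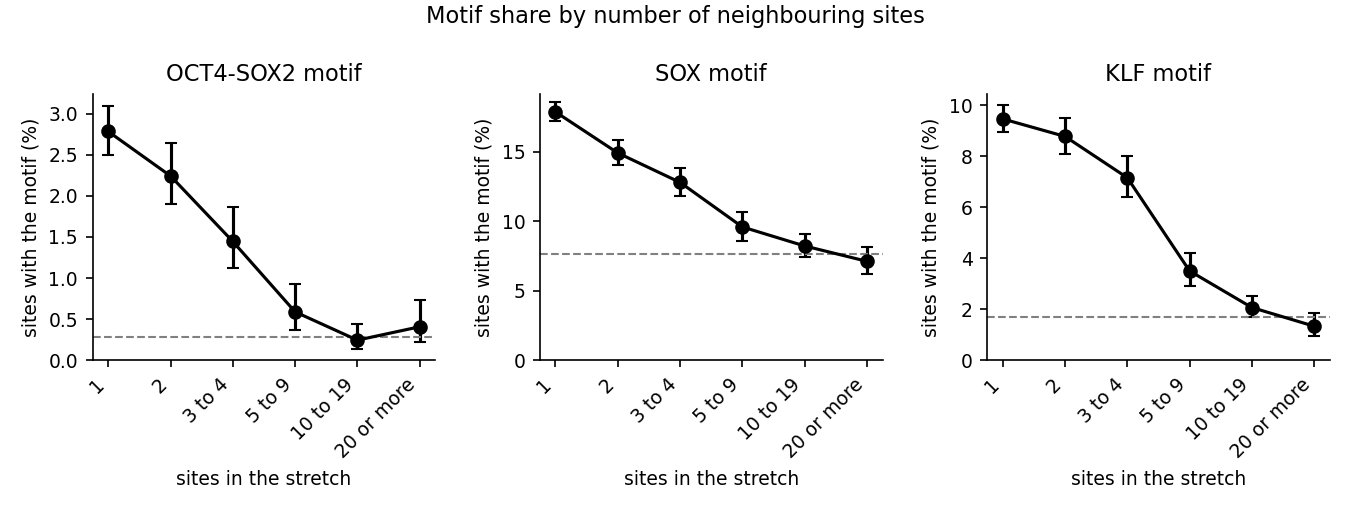
Percentage of selected sites with the OCT4-SOX2, SOX or KLF motif, by the number of selected sites joined into the same stretch (1 for a site standing alone). Points are shares with 95% Wilson intervals and dashed lines are the shares of windows every 10 kb. OCT4-SOX2 falls from 2.78% at sites alone to 0.244% in stretches of 10 to 19 and 0.407% in stretches of 20 or more.

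The 431 stretches covered 8.77 Mb, 0.356% of the autosomes, on all 19 autosomes, with a median length of 16.3 kb (3.25 to 85.9). In 411 of them no site held OCT4-SOX2, and in 377 no site reached a score of 10. The choice set the density of the selected sites there. It also kept adult and CTCF hotspots off these sites, which covered 18.05% of the stretches, so the ratios given for those sets were shaped by it too. The stretches were found where hotspots of this same mESC set crowd, so the density of its other hotspots there is not independent of the choice. Those shared with adult tissue and free of CTCF were 8.55 times as dense in the stretches as on all autosomes, with 152 and 17.7 per Mb. In the 20 adult sets the same ratio ran from 0.891 to 1.08, and for mESC CTCF ChIP-seq hotspots it was 1.40. The lower GC content and larger masked share of these sites went along with the density, and their part in it was not tested.

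The 5 stretches with the most sites show what these domains look like. A stretch at chr2:77943582-78024680, nearest to the splicing factor gene Cwc22, held 67 sites with a highest score of 4.12, and the adult sets had 0 to 4 hotspots in it. Another with 67 sites at chr5:32652184-32724213, nearest to the Src-family kinase gene Yes1, had a highest score of 7.28 and 3 to 11 adult hotspots. The stretch near Clvs2 (chr10:33614695-33664969) held 63 sites with 0 to 4 adult hotspots, that near the chemokine gene Ccl25 (chr8:4364144-4448484) 55 sites with 3 to 11, and that near BC107364 (chr3:96431787-96517698) 53 sites with 5 to 14. No site in these 5 stretches held OCT4-SOX2. By nearest TSS, genes with the most selected sites included Clvs2 (123), Mettl4 (82), Cwc22 (69), BC107364 (55), the asparagine synthetase gene Asns (53), Nubpl (52), Pde4d (52), Yes1 (49) and Vps50 (47). None of these genes is on the pluripotency list, and for Clvs2, Mettl4 and BC107364 every assigned site was in a stretch of 10 or more.

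Many hotspots had close neighbours. Of the selected sites, 34.2% had another mESC hotspot within 100 bp, near the 32.3% of shared sites without CTCF, and 54.8% of those in stretches of 10 or more did. A count of sites near a gene therefore need not be a count of separate elements.

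Around Pou5f1 (ENSMUSG00000024406, chr17:35506018-35510772, plus strand) the stretch had another character. It held 17 sites, and 6 of the 18 sites within 50 kb of the TSS scored 10 or more. The strongest, chr17:35501375-35503050, was 1676 bp wide, lay 3805 bp upstream and scored 60.9. The next, chr17:35489492-35491634, was 2143 bp wide, lay 15455 bp upstream and scored 39.0. A site over the TSS itself (chr17:35505867-35506104) scored 3.99, and the nearest adult hotspot was 41 bp away. Upstream lay 17 of the 18 sites and 1 lay 30913 bp downstream. The adult sets had 9 to 26 hotspots (median 15) within the same 50 kb on either side.

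**Figure D4:**
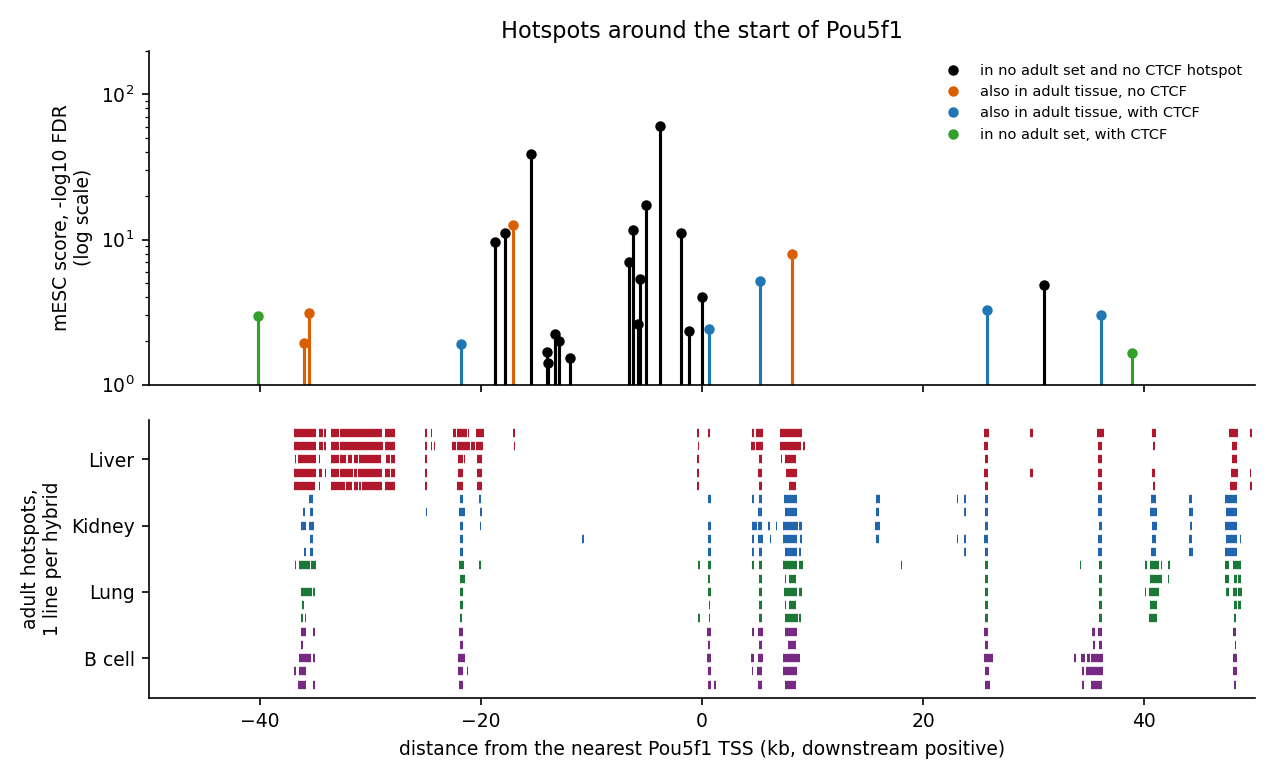
Hotspots within 50 kb of the nearest Pou5f1 TSS, by distance in kb with downstream positive. In the upper panel each line is an mESC hotspot drawn to its score (log axis) and coloured by class. In the lower panel bars are adult hotspots, 1 line per hybrid within each tissue. The mESC sites in black, with scores up to 60.9, fall where the adult lines are empty because they were selected that way.

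Other genes of naive pluripotency had smaller groups of sites. Of the 37 autosomal genes of the pluripotency list, 33 had a selected site within 50 kb of a TSS, 89.2%, where 64.1% of 20780 autosomal protein-coding genes did. At least 5 sites were found at 13 of the 37, 35.1%, against 10.6% of all genes. The median was 3 sites a gene against 1 over all genes. Genes of the list outside the autosomes were not counted, and Gbx2, Klf4, Rif1 and Stat3 had no site. Neighbouring genes of the list shared sites, as did Lefty1 with Lefty2, Dppa2 with Dppa4 and Dppa3 with Gdf3. The genes counted are therefore not all separate observations.

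Zfp42, which encodes the naive marker REX1, had 14 sites in 1 stretch (scores 1.53 to 10.4, median 2.33), and the strongest, chr8:43308201-43309010, lay 1626 bp upstream. Fgf4, the growth factor that drives exit from the naive state, had 13 (1.46 to 12.1, median 1.84), among them one 3079 bp from a TSS with a score of 8.71. Tfcp2l1, a naive-state activator, had 8 (1.57 to 22.7, median 2.22), Dppa5a, an RNA-binding protein gene of pluripotent cells, had 8 (1.49 to 7.42, median 2.92) and Utf1, a chromatin-associated factor gene, had 8 (1.45 to 9.33, median 2.32). Sox2 had only 3 sites, with scores of 5.50, 3.45 and 6.97, 2 of them 41846 and 47318 bp downstream. Nanog also had 3, with scores of 6.61, 5.73 and 1.44, and the strongest lay 17213 bp upstream. The Nanog start was within 3 bp of an adult hotspot, so its place among the selected sites hung on a few bases. Jarid2, a Polycomb-associated gene, had 6 sites, 1 of which was among the 10 strongest of all.

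Some genes of later embryonic states were also flanked by many sites. Of all genes, 64.1% had a site within 50 kb and 10.6% had at least 5. Of 12 formative and primed genes, 11, 91.7%, had a site within 50 kb and 4, 33.3%, had at least 5, with a median of 3. Zic2 had 21 sites, 19 of them in a stretch of 10 or more, with scores of 1.43 to 10.1 and a median of 1.99. Otx2, a factor of the primed state, had 14 (1.47 to 5.60, median 2.20), 5 of them within 1 kb of a TSS. Among 26 lineage factors of the embryo, 20, 76.9%, had a site and 7, 26.9%, had at least 5, with a median of 2. The neural factor gene Olig2 had 19 (1.64 to 5.55, median 2.12) and Pax7 had 11 (1.38 to 10.7, median 1.96). The mesoderm factor gene T (Brachyury) had 11 (1.43 to 4.62, median 2.12), of which 7 lay within 1 kb of its TSS, where no adult set had a hotspot. None of these 38 genes had a site with OCT4-SOX2 within 50 kb. Only 2.66% of all genes had one, so none among so few is near that share. Such a site was near 4 of 37 genes on the pluripotency list (10.8%). It was also near 2 of 22 chromatin modifiers (9.09%), 1 of 10 kidney genes (10.0%) and 1 of 24 signalling targets of the medium (4.17%). The remaining lists had none.

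Lists of adult and other cell types fell on both sides of the background of 64.1%. A site lay within 50 kb of 4 of 10 liver genes, 4 of 10 lung genes, 7 of 10 kidney genes and 9 of 10 B cell genes, with at least 5 sites at 0, 1, 1 and 0 of them. The share of B cell genes with a site, 90.0%, was thus as high as that of the pluripotency list. Among markers of cells that an mESC culture might hold, 8 of 12 extraembryonic genes and 6 of 10 fibroblast genes had a site, with a maximum of 9 at Tfap2c, which pluripotent and trophoblast cells both use, and 7 at Twist2. Chromatin modifiers had a site at 21 of 22 genes and at least 5 at 5 of 22, led by Chd1, Jarid2 and Prdm14 with 6 each. Of 24 signalling targets of the medium, 18 had a site, with Socs3, a STAT3 target, at the maximum of 5.

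Gene starts gave a different picture. A selected site lay within 1 kb of a TSS at 1473 of 20780 genes, 7.09%. At 12 of 30 germline genes, 40.0%, and at 12 of 37 pluripotency genes, 32.4%, such a site was present, although only 1 of the 30 germline genes had at least 5 sites within 50 kb. Many germline genes have CpG-rich starts that DNA methylation keeps silent in somatic cells. The CpG content and methylation of the listed starts were not examined here. At 648 of the 1473 genes, 44.0%, all 20 adult sets had a hotspot within 1 kb of a TSS as well, and at 149, or 0.717% of all genes, none had.

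Among those 149 starts without adult hotspots were 5 of the 30 germline genes. Hormad1, a meiotic chromosome axis gene, had a site with a score of 9.76, 74 bp from its TSS. Syce1, a synaptonemal complex gene, had 2 sites, the higher at 8.16. Sohlh2, a germ cell transcription factor gene, scored 4.01, Mael, a piRNA pathway gene, 3.97, and Fkbp6, also of that pathway, 1.505. From the other lists, Dppa5a with 7.42, T with 4.62 and Cdx1, a WNT target, with 8.40 had such starts. The strongest of the 149 were the starts of 4930579G24Rik (42.1), the cell cycle gene Cdc20 (19.3) and Eif4e1b (16.2), an oocyte form of the cap-binding protein, named after their values were seen. For Cdc20, 3 sites lay within 1 kb of a TSS, and the adult sets had no hotspot there.

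**Figure D5:**
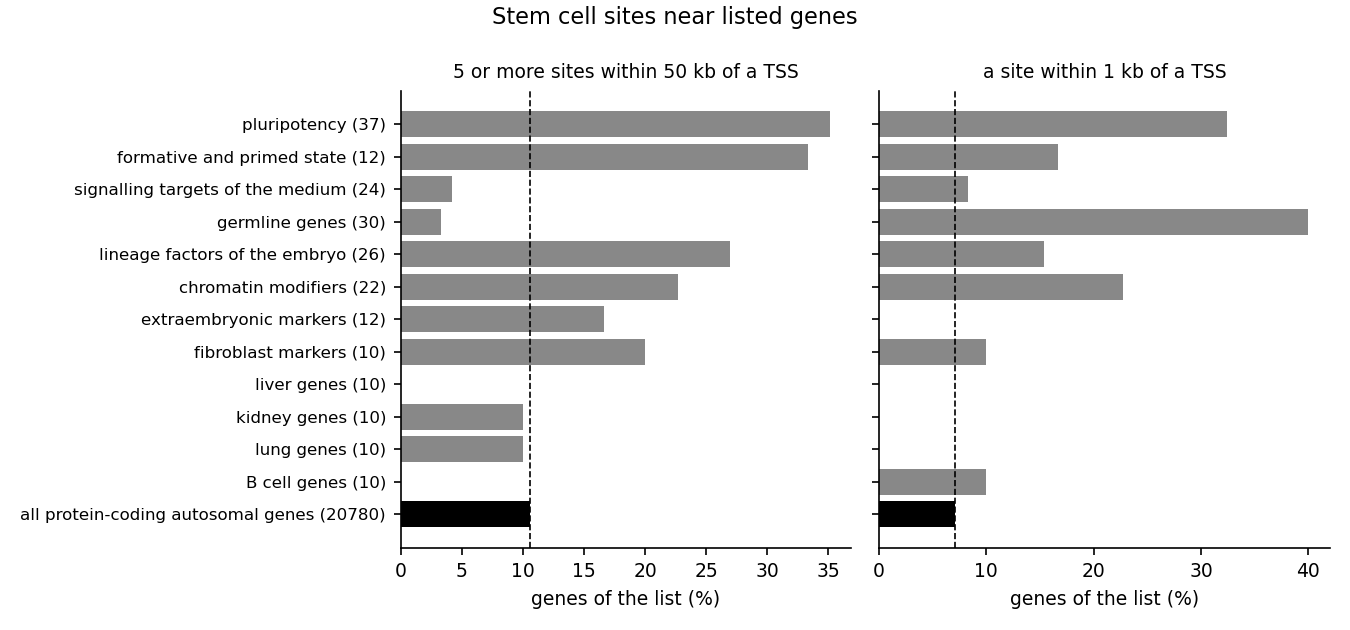
Percentage of the autosomal genes of each list, whose number is in brackets, with 5 or more selected sites within 50 kb of a TSS (left) and with a selected site within 1 kb of a TSS (right). The dashed lines mark all protein-coding autosomal genes, at 10.6% and 7.09%. Germline genes reach 40.0% on the right and 3.33% on the left, and pluripotency genes 32.4% and 35.1%.

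The 10 strongest sites were not a list of pluripotency enhancers. The 3 at the ceiling of 100 were an exonic site nearest to Lars2, a mitochondrial leucyl-tRNA synthetase gene (chr9:123461784-123462287), an intergenic site 789202 bp from Ddx18 (chr1:122357034-122357347) and an intronic site nearest to Zc3h7a (chr16:11143963-11144254). None of the 3 held any of the 7 pluripotency motifs in its central 200 bp. The next were nearest to Stmn2 (score 74.1), Myom2 (68.2) and the start of Tmem43 (65.03). Then came an intronic site nearest to Jarid2 (62.1) with a KLF match (chr13:44869474-44869836), the upstream site of Pou5f1 described above (60.9), an intronic site nearest to Foxk1 (60.4) with SOX and octamer matches, and an intronic site nearest to the titin gene Ttn (chr2:76805011-76805781, 60.3) with the OCT4-SOX2 element.

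Across the genome the selected sites were found on every autosome. They made up 22.2% of the mESC hotspots on chromosome 19 and 31.4% on chromosome 3, the lowest and highest shares, and their density ran from 10.2 to 16.8 per Mb. Taken alone, a single adult set held 17.6% to 40.8% (lung of B6xCAST) of the mESC hotspots without CTCF, and all 20 together held 43628 of them.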

How the data were processed

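DNase I cut sites were sequenced in adult liver, kidney, lung and B cells of 5 F1 hybrids and in mESCs, and CTCF was profiled in the mESCs by ChIP-seq. The authors aligned the reads with BWA to mm10 and called hotspots with hotspot2 at an FDR of 5% on the pooled data of each condition, and the deposited value of a hotspot is the −log10 of its FDR. Deposited RNA-seq count tables from RSEM were not used here.

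Hotspots were compared by overlap of at least 1 bp (Python 3.11.15, numpy 2.4.6, pandas 2.3.3). Genes were from GENCODE vM21, and sequence, with its soft-masking, from RefSeq GRCm38. Sites were assigned to classes by adult and CTCF overlap, and 28 motifs were searched in 200 bp. Motif shares in the selected sites were set against 20 adult shares by an exact two-sided permutation test with Benjamini-Hochberg adjustment (statsmodels 0.14.6). Wilson intervals were computed with scipy 1.17.1. The overlap and motif searches were tested on simulated data. The adult sets share tissues and hybrids, and the mESC set had no replicate, so the spread among adult sets is not the error of the mESC values. Deposited sets hold no read counts, and the read totals that the study reports were not used, so depth was not weighed.

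The sites, gene lists and motifs were chosen with earlier results of these data known. Genes named were those of each list with the most sites within 50 kb (up to 8 a list), the 10 with most sites by nearest TSS, the 10 highest-scoring sites and the 5 largest stretches. Some genes that this rule names are not reported here. Sequences were those with the best OCT4-SOX2 match near pluripotency genes, none from chromosome 18. Stretch classes, exact matches and gene starts without adult hotspots were added after seeing the data. Alternatives changed the adult sets used, the FDR, the overlap rule, the search window, the mismatches allowed and the distances.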

Additional observations from a re-analysis of the deposited data

Results flagged for a closer look

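Of 28 groups of 5 hybrids, 1 for each pluripotency motif and adult tissue, 6 held a hybrid far from the other 4, where chance gives about 1 in 20. OCT4-SOX2 was found at 0.135% of lung-only sites in B6xCAST, against 0.219% to 0.235% in the other hybrids. In the same lung sites TFCP2L1 stood at 3.13%, against 1.98% to 2.23%. Among liver-only sites of B6xCAST, KLF stood at 2.12% (1.69% to 1.79% in the others), TFCP2L1 at 2.66% (2.05% to 2.18%) and ZIC at 0.713% (0.595% to 0.628%). SOX was found at 6.90% of kidney-only sites in B6xC3H, against 7.39% to 7.42%. Each of these adult values was below the share in the selected mESC sites except for TFCP2L1, which was above the 2.16% of the mESC sites in both sets. Of the 6 values, 5 were in B6xCAST, the cross that the mESC sets are also labelled with.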

How the results depend on the processing

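The number of selected sites was 31970, and 15 of 16 alternatives kept it within 1.5 times, the exception being mESC hotspots at an FDR of 1%, which left 19752. Leaving out each hybrid or tissue in turn gave 32408 to 35647 sites. The OCT4-SOX2 share of 1.75% became 2.22% at an FDR of 1%, 2.26% in 400 bp, 0.244% with 1 change allowed, 8.83% with 3 and 2.16% without stretches of 10 or more (chosen after seeing the data), and 1.71% to 1.77% with a hybrid or tissue left out. Shared sites stood lower in each of these window and mismatch settings, at 1.25%, 0.0756% and 3.94%. With the whole hotspot searched, the share was 1.86% in selected and 1.24% in shared sites. That gap was narrower than the 1.75% against 0.823% in 200 bp. The share within 1 kb of a TSS, 6.44%, became 6.89% with the B6xCAST adult sets alone, 5.07% with a margin of 250 bp, 7.81% where 50% of a hotspot had to be covered, 7.22% without large stretches, 10.5% at 2 kb and 9.78% with the TSS of all genes, and ran from 6.46% to 7.06% with a hybrid or tissue left out. The count of 33 pluripotency genes with a site ran from 29 at 20 kb to 37 at 100 kb. No paired analysis was possible because replicates were pooled within each deposited set and no result came from a test between replicates. The mESC values rest on 1 set, depth was not weighed, and a site absent from the adult sets may lie below their threshold.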
